A study of Mus musculus with 16 samples.

Results

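Isolated accessible regions are the regions of the deposited ATAC-seq table with no other listed region on the same chromosome whose start lies within 50000 bp of their own. The rule uses position alone and reads no signal. It selected 2197 of the 250313 listed regions (0.878%), and the other 248116 served as the comparison. Every listed region was 500 bp long. Of the isolated regions, 1386 (63.1%) reached the mean signal of 7.48 that was needed to enter the tests, against 223895 of the others (90.2%); the remaining 811 isolated regions enter the descriptions of position and signal but not the tests.

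Open chromatin was profiled by ATAC-seq in mTECs, medullary epithelial cells of the thymus, sorted from C57BL/6 mice at 4 weeks of age; in this assay the Tn5 transposase cuts and tags accessible DNA, here with 60000 cells per reaction. Cells negative for DAPI and CD45, positive for EpCAM and for UEA binding, and low in Ly51 were split by MHC class II into mTEChi (high) and mTEClo (low). The 16 libraries form 8 groups of 2, namely both sorts from Aire+/+, Aire-/-, Brg1+/+ and Brg1-/- mice, and the descriptions of the Brg1+/+ libraries carry the word NOCRE. Which Cre line deleted Brg1, in which cells, whether the Brg1-/- mice differ from their controls in carrying Cre, and whether both libraries of 1 group were made from different mice are not given in the sources used here. P-values therefore measure the spread between libraries, which may be technical. Accessibility at marker genes, and the genes, exons or introns in which the regions lie, were not analysed here because the table is on the mm9 build and the gene annotation supplied is for a later mouse assembly; the sorts and genotypes rest on the labels.

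mTECs are the stromal cells of the thymus that display a broad range of tissue-restricted self-antigens to developing T cells. Maturing mTECs raise MHC class II, and Aire, a nuclear protein that drives much of this ectopic expression, is found mainly in the mTEChi fraction. Brg1 is an ATPase subunit of BAF chromatin remodelling complexes, which move or evict nucleosomes. Open regions usually mark promoters, enhancers and other sites bound by regulatory proteins, and they tend to lie in groups around active genes, so a region far from any other open region is a less common arrangement.

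Isolated regions lay in stretches that were sparse well beyond the distance set by the rule. The median distance from an isolated region to the nearest other listed start was 74169 bp (range 50026 to 1045831), and it was 1505 bp for the other regions (up to 49952). This difference follows from the rule. A window of 500 kb on each side held a median of 21 other listed regions around an isolated region (10th to 90th percentile 6 to 63) and 148 around any other region (63 to 246). At longer distances, 647 isolated regions were more than 100 kb from the nearest start, 128 more than 200 kb and 10 more than 500 kb.

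Chromosome X carried more than its share. It held 277 of its 4214 listed regions as isolated (6.57%), which was 12.6% of all isolated regions, while the autosomes together held 0.780%. The share on single autosomes ranged from 0.293% on chromosome 11 to 1.27% on chromosome 3. Listed regions were also thinner on X, at 26.0 per Mb against 102.03 per Mb over the autosomes (79.4 to 149.6 on single autosomes). The chromosomes richest in listed regions held the fewest isolated ones per Mb and X, the poorest, held the most.

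**Figure D1:**
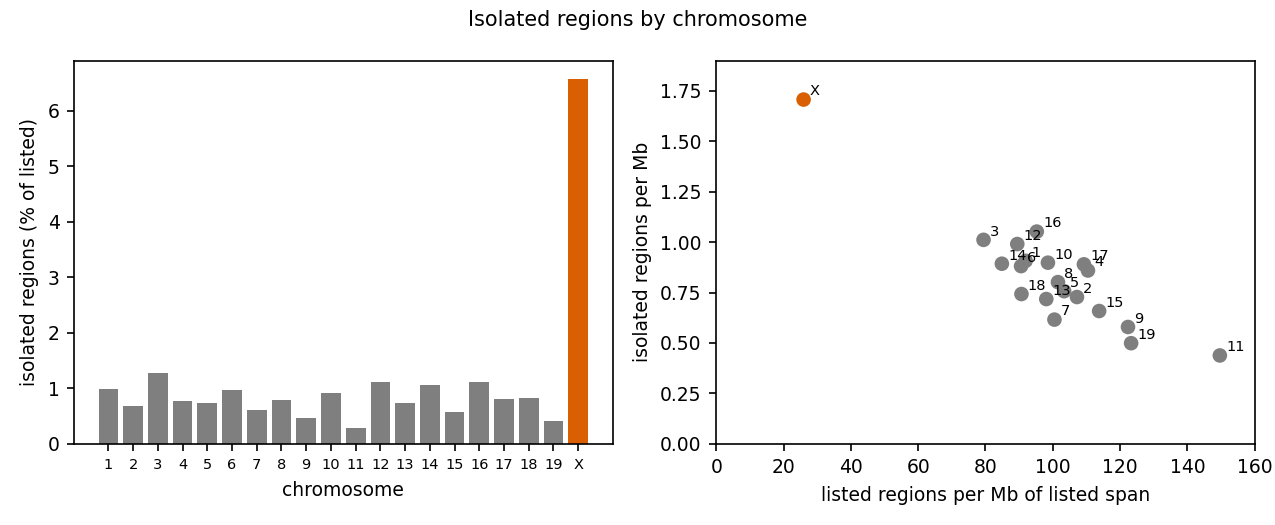
Left, the share of listed regions that are isolated on each chromosome (percent); right, isolated regions per Mb against all listed regions per Mb of the span between the first and last listed region, 1 point a chromosome. X stands apart in both, with 6.57% of its regions isolated at 26.0 listed regions per Mb, and chromosome 11, with 149.6 listed regions per Mb, has the lowest share, 0.293%.

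Isolated regions also followed each other along the chromosome. Of the 2197, 799 had no isolated region as the next listed region on either side, 552 stood in 276 runs of 2, 336 in 112 runs of 3, 180 in 45 runs of 4, and 330 in 56 runs of 5 or more. The longest was a run of 11 on X (chrX:111170183-117041070, 5.87 Mb, mm9). Runs of 9 were found on chromosome 12 (chr12:62755241-64283221) and again on X (chrX:87658413-90246910). In these 3 runs the median of the regions' mean signals was 6.64, 7.59 and 6.39, under the median of 8.63 over all isolated regions. A run of 8 on chromosome 9 (chr9:18734640-20007112) had a similar median, 6.92, but also held the brightest isolated region of the table.

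Signal was lower at isolated regions. Averaged over the 16 libraries, the median normalized signal was 8.63 for isolated regions (middle 50% of regions 6.62 to 13.0) and 14.2 for the others (9.70 to 25.8). Of the isolated regions, 481 (21.9%) exceeded the median of all listed regions, against 50.2% of the others, and 34 (1.55%) were among the brightest 10% of listed regions, above 52.5, against 10.1%. In a bulk sample, fewer cells with the region open and a smaller opening per cell cannot be told apart. An isolated region lay above the median of its library in a median of 3 of 16 libraries, and any other region in 7; 56 isolated regions (2.55%) were above it in all 16 libraries, against 14.0% of the others. The lower signal was seen on each of the 19 autosomes, where the median of isolated regions was below that of the others, and isolated regions on X (8.44) and on the autosomes (8.66) had nearly the same median.

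The decline had no step at 50 kb. Median mean signal fell from 16.9 for regions within 1 kb of the next start to 13.3 at 2 to 5 kb, 11.5 at 10 to 20 kb and 10.5 at 20 to 40 kb. The 965 regions just outside the rule, 40 to 50 kb from the nearest start, had a median of 9.84, and the 570 just inside it, at 50 to 60 kb, had 9.16. Beyond 200 kb the median of the 128 regions was 7.61. Isolated regions are thus the far end of a gradual trend of signal with distance, and the regions on either side of its edge had similar signal. In each of these ranges the median over regions of the mTEChi mean was above that of the mTEClo mean, for example 10.2 and 7.27 at 50 to 60 kb. These means pool the genotypes, and the order was not seen in all mice. Library medians of isolated regions were 7.57 to 9.12 in mTEChi and 8.90 to 10.1 in mTEClo of the Aire mice. They were 6.43 to 11.2 and 5.12 to 5.55 in the Brg1 mice.

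**Figure D2:**
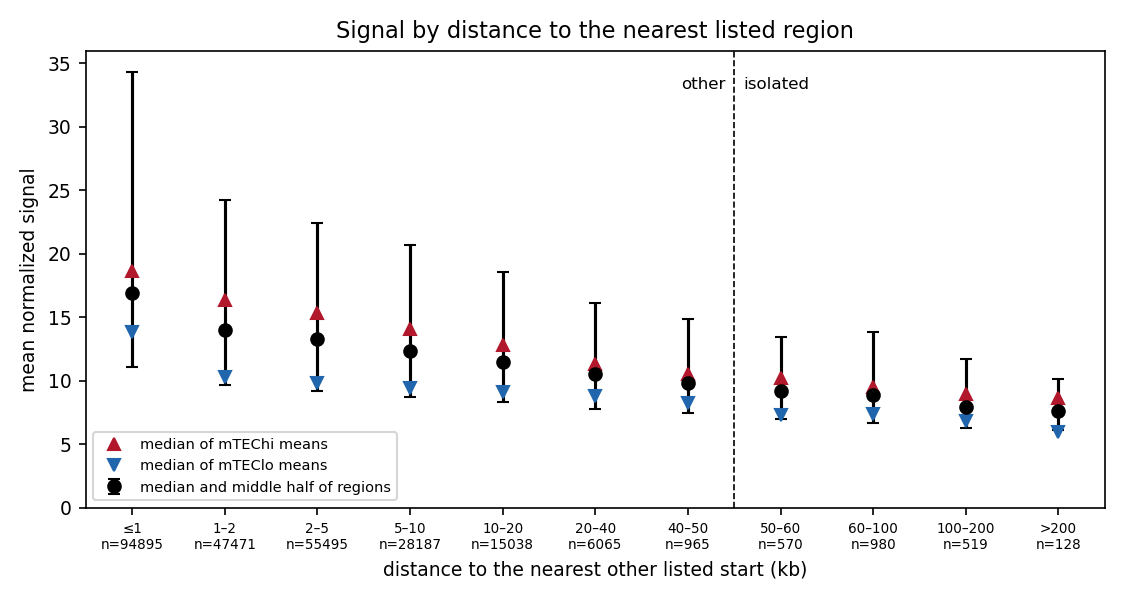
Mean normalized signal over 16 libraries (black, median and middle 50% of regions) and the medians of the mTEChi (red) and mTEClo (blue) means, by distance to the nearest other listed start in kb; the number of regions stands under each range, and the dashed line marks the rule at 50 kb. The median falls from 16.9 within 1 kb to 7.61 beyond 200 kb without a step at the line.

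The same held in every library. In the 8 mTEChi libraries the median signal of isolated regions lay between 6.43 and 11.2, and that of the others between 11.8 and 19.8. In the 8 mTEClo libraries the medians were 5.12 to 10.1 for isolated and 8.51 to 13.9 for other regions. On the log2(signal + 1) scale, isolated regions were lower by a mean difference of -0.82 ± 0.11 (SD, n = 8 libraries; -1.001 to -0.69) in mTEChi and of -0.57 ± 0.16 (SD, n = 8; -0.83 to -0.38) in mTEClo. No p is given for these differences, which are medians over a chosen set.

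The gap between the sorts was found in the Aire mice and was small in the Brg1 mice. In the 4 libraries of each sort from Aire+/+ and Aire-/- mice, the difference was -0.83 ± 0.16 in mTEChi (-1.001 to -0.69) and -0.44 ± 0.061 in mTEClo (-0.52 to -0.38), and the sorts did not overlap. From Brg1+/+ and Brg1-/- mice it was -0.81 ± 0.073 in mTEChi (-0.91 to -0.75) and -0.71 ± 0.085 in mTEClo (-0.83 to -0.64), and the sorts overlapped. By genotype, the group means were -0.81 in Aire+/+ and -0.86 in Aire-/- mTEChi, -0.42 and -0.45 in mTEClo, -0.77 in Brg1+/+ and -0.85 in Brg1-/- mTEChi, and -0.65 and -0.76 in mTEClo. The libraries of the genotypes overlapped in 3 of these 4 pairs. In Brg1 mTEClo they did not, with -0.66 and -0.64 in Brg1+/+ against -0.70 and -0.83 in Brg1-/- mice. Once regions of low mean signal were left out, the difference was -0.65 in mTEChi and -0.30 in mTEClo. With quantile-normalized libraries it was -0.75 and -0.64, so that the gap between the sorts narrowed.

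**Figure D3:**
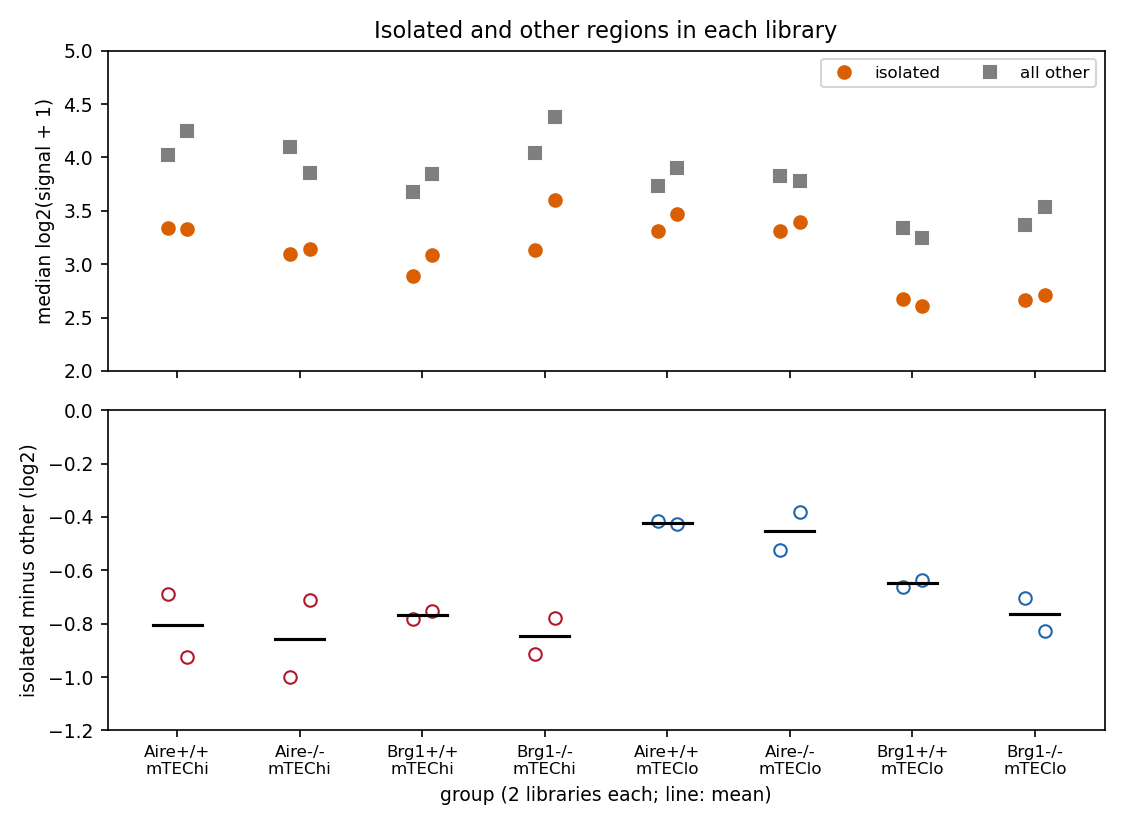
Top, the median log2(signal + 1) of isolated (orange) and other (grey) regions in each of 16 libraries; bottom, their difference, with a line at the mean of the 2 libraries of a group (red mTEChi, blue mTEClo). Isolated regions are lower in all 16 libraries, with differences of -1.001 to -0.38 on the log2 scale, and the mTEClo libraries of the Aire mice have the smallest differences.

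Low signal came with a wider spread between libraries. Over the tested regions, the correlation of the 2 libraries of a group, on the log2 scale, was lower for isolated than for other regions in all 8 groups. It was lowest in Aire+/+ mTEChi, at 0.237 for isolated and 0.541 for other regions, and highest among isolated regions in Brg1+/+ mTEClo, at 0.663 against 0.817. The median absolute difference between the 2 libraries of a group ranged from 0.537 to 1.02 over groups for isolated regions and from 0.466 to 0.816 for others. At matched signal the spread of isolated regions was close to that of others or somewhat wider. In the lowest 10% of tested regions by mean signal, it was 0.962 for isolated and 0.968 for other regions. This class holds 25.8% of the tested isolated regions. In every higher class of 10% it was wider for isolated regions, for example 0.732 against 0.658 in the fifth and 0.601 against 0.593 in the seventh. In the highest, which holds 2.31% of the tested isolated regions, it was 0.326 and 0.272. These correlations run across regions, which are not independent replicates, and are descriptions.

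The files give no read counts, so the depth behind each value is unknown. Many values recurred exactly, above all at isolated regions: within a library, 62.9% to 90.2% of isolated regions carried an exact value that 100 or more regions of that library shared, against 53.7% to 68.5% of the others. A signal of 0 was listed in 3 libraries. It was listed for 125 isolated regions (5.69%) in Aire+/+ mTEChi replicate 2, for 78 (3.55%) in Aire+/+ mTEClo replicate 2 and for 65 (2.96%) in Aire-/- mTEClo replicate 2, against 1.31%, 1.60% and 1.08% of the other regions. Listed zeros were more frequent at isolated regions in each of these libraries.

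A small set of isolated regions was bright. Their mean signal exceeded 50 at 36 (1.64%, against 10.8% of the others), spread over 16 chromosomes. The brightest, chr9:19426270-19426769, had a mean signal of 509.9, with 415.0 to 808.3 in the 8 mTEChi libraries (median 524.0) and 353.3 to 547.7 in the 8 mTEClo libraries (median 468.0). The sorts overlapped, and the mean sort difference over the 4 genotypes was 0.23 on the log2 scale (SE 0.084, adjusted p = 0.0258 in limma). With each library re-centred on its median, this small difference turned to -0.24 and passed as higher in mTEClo. With libraries left out 1 at a time, it did not pass in 8 of the fits, where it was 0.14 to 0.22. This region lay 57423 bp from the nearest listed start, with 4 other listed regions within 500 kb on either side.

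The next 3 by mean log2 signal lay together on chromosome 17. They were chr17:17141753-17142252 (mean signal 243.2), chr17:17431008-17431507 (190.4) and chr17:17088126-17088625 (186.5). The fifth was chr2:150136889-150137388 (165.8; 137.2 to 240.0 in mTEChi and 123.4 to 197.2 in mTEClo). None of these 4 passed the test for a sort difference in any genotype or over the mean of 4 (adjusted p of the mean 0.120 to 0.545). Re-centring moved all 4 to between -0.70 and -0.38 over the mean, and each then passed as higher in mTEClo. Without Brg1+/+ mTEClo replicate 1 or Aire-/- mTEChi replicate 1, chr17:17431008-17431507 passed at -0.31 as well.

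Some isolated regions were nearly level across all groups. The steadiest among those at or above the median signal of the tested regions was chr1:60399949-60400448, whose signal ran from 107.5 to 136.8 in mTEChi and from 121.1 to 161.4 in mTEClo, with a mean of 130.3. It was followed by the region on chromosome 2 named above and by chr9:88753547-88754046, with a mean of 81.5 and 60.6 to 100.9 over the 16 libraries. Neither chr1:60399949-60400448 nor chr9:88753547-88754046 passed the test in any contrast between sorts (adjusted p for the mean of 4 genotypes 0.315 and 0.521), which does not show that the sorts are equal there. With re-centring the differences were -0.64 and -0.61, and both passed.

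The regions farthest from any other were not uniformly faint. Most distant was chr7:10034006-10034505, 1045831 bp from the nearest start, with a mean of 10.5 and overlapping sorts (1.46 to 22.1 in mTEChi and 0.501 to 24.6 in mTEClo). Next came chrX:118345996-118346495, at 789302 bp, with a mean of 47.6, well above the median of isolated regions. It was higher in mTEClo of Aire-/- mice, with 35.5 and 6.11 in the 2 mTEChi libraries and 60.3 and 82.0 in the 2 mTEClo libraries (log2 difference -2.15, SE 0.53, adjusted p = 0.00708). The same region ran from 20.5 to 87.4 in the mTEChi and from 33.1 to 68.1 in the mTEClo libraries of the other 3 genotypes, and no difference passed the test there. The Aire-/- call was lost without Aire-/- mTEChi replicate 2 (log2 difference -0.97, adjusted p = 0.296) or mTEClo replicate 2 (-1.93, adjusted p = 0.105). The mean of the 4 genotypes passed as well (-0.73, adjusted p = 0.0294) and was lost in 7 of 24 alternatives, each leaving out 1 library (highest adjusted p 0.137). The third, chrX:22022766-22023265 at 616668 bp, had a mean of 9.92 and passed no test.

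The sorts were compared within each genotype and as a mean of the 4 genotypes, with limma over all 225281 tested regions and a Benjamini-Hochberg adjusted p under 0.05. In Aire+/+ mice, 86 isolated regions passed (6.20% of the 1386 tested), where 8.79% of all tested regions did. In Aire-/- mice 108 passed (7.79%, where 11.4% of all did), in Brg1+/+ mice 103 (7.43%, where 13.0% did) and in Brg1-/- mice 74 (5.34%, where 8.11% did). Over the mean of the 4 genotypes, which draws on all 16 libraries, 396 passed (28.6%, where 37.7% of all did). Isolated regions thus passed less often than tested regions as a whole in all 5 comparisons, and this order is a description, since their mean signal was also lower. Counts in single genotypes depended on single libraries, and the shares of all tested regions in fits without a library are not given here. In Aire+/+ mice 100 passed without mTEChi replicate 1, 34 without mTEChi replicate 2, 39 without mTEClo replicate 1 and 23 without mTEClo replicate 2. In Aire-/- mice 35 and 57 passed without mTEChi replicate 1 and 2, and 45 and 24 without mTEClo replicate 1 and 2; in the same order the counts were 57, 50, 47 and 34 in Brg1+/+ and 46, 16, 25 and 24 in Brg1-/- mice. The count over the mean was steadier, at 325 to 415. As a share of all 2197 isolated regions with no filter on signal, 3.91%, 5.19%, 4.69%, 4.01% and 20.3% passed. The shares of all listed regions in that fit are not given here, and the filtered shares above are no match for them.

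In 4 of these 5 comparisons, a smaller share of calls was higher in mTEChi at isolated than at other regions as a whole. This was not confined to isolated regions. Among called regions at 40 to 50 kb, just outside the rule, 37.2%, 56.9%, 63.5% and 87.2% were higher in mTEChi in Aire+/+, Aire-/-, Brg1+/+ and Brg1-/- mice. Over the mean it was 64.3%. Of the isolated regions called in Aire+/+ mice, 40 were higher in mTEChi and 46 in mTEClo, so that 46.5% were higher in mTEChi, against 58.5% of the other called regions; among all tested regions 5.14% were called higher in mTEChi and 3.65% lower. In Aire-/- mice 53 were higher and 55 lower (49.1% against 63.0%; background 7.15% higher and 4.22% lower), and in Brg1+/+ mice 67 and 36 (65.0% against 71.1%; 9.21% and 3.75%). Brg1-/- mice went the other way, with 69 higher and 5 lower (93.2% against 81.4%; 6.61% and 1.5%). Over the mean of 4 genotypes 238 were higher and 158 lower (60.1% against 72.0%; 27.1% and 10.6%). Without Aire+/+ mTEChi replicate 1 the split in Aire+/+ mice was 24 higher and 76 lower.

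These splits depend on how libraries are scaled. With quantile-normalized libraries the share higher in mTEChi among called isolated regions was 35.4%, 38.9%, 32.8% and 28.1% in Aire+/+, Aire-/-, Brg1+/+ and Brg1-/- mice and 34.6% over the mean, against 44.9%, 52.2%, 43.5%, 35.4% and 48.5% of the other called regions. With each library re-centred on its own median it was 25.6%, 28.2%, 30.8% and 24.5%, and 28.2% over the mean, against 33.4%, 43.1%, 35.1%, 18.2% and 38.5%. The predominance of mTEChi-higher calls at isolated regions of Brg1 mice and over the mean was therefore reversed by both scalings. The lower share than at other regions in Aire+/+, Aire-/- and Brg1+/+ mice and over the mean was kept under both scalings. In these comparisons, directions were more balanced at isolated than at other regions with the deposited values and less balanced under both scalings. The higher share in Brg1-/- mice was kept with re-centring and reversed with quantile-normalized values.

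The size of the sort difference followed the same lines. The median log2 difference, mTEChi minus mTEClo, over tested isolated and other regions was -0.088 and 0.16 in Aire+/+, -0.12 and 0.098 in Aire-/-, 0.32 and 0.42 in Brg1+/+, and 0.62 and 0.62 in Brg1-/- mice. Re-centring moved the median of the other regions to between -0.19 and -0.093 in the 4 genotypes, and quantile normalization to between -0.043 and -0.013. The isolated regions lay 0.25 and 0.22 below the others in the Aire+/+ and Aire-/- comparisons, 0.10 below in Brg1+/+ mice and level with them in Brg1-/- mice. Tested regions at 40 to 50 kb, just outside the rule, had similar medians to isolated ones. These were -0.046, -0.077, 0.30 and 0.63 in Aire+/+, Aire-/-, Brg1+/+ and Brg1-/- mice. The smallest difference called at an isolated region was between 1.10 and 1.52 in the 4 genotypes, and the smallest at any other region between 0.33 and 0.39.

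Among regions of like signal, the order of the sets varied. The tested regions were divided into 5 equal classes by mean log2 signal, of which the lowest held 581 isolated regions and the highest 82. In Aire+/+ mice 1.55% of isolated and 1.83% of other regions passed in the lowest class, and 18.3% and 17.5% in the highest. In the second class isolated regions passed more often in both Aire genotypes, at 7.41% against 3.58% in Aire+/+ and 9.76% against 6.08% in Aire-/- mice. They passed less often in the lowest class of Brg1+/+ mice, at 1.55% against 3.75%, and in the third class of Brg1-/- mice, at 3.95% against 7.41%. In the highest class they passed less often in the other 3 genotypes, at 10.98% against 19.2% in Aire-/-, 14.6% against 20.3% in Brg1+/+ and 7.32% against 12.7% in Brg1-/- mice. In the fourth class they passed less often in all 4 genotypes. The shares there were 12.1% against 14.4% in Aire+/+, 16.2% against 18.1% in Aire-/-, 14.6% against 20.6% in Brg1+/+ and 9.09% against 10.7% in Brg1-/- mice. Over the mean of the 4 genotypes they passed less often in every class but the second, where 32.3% passed against 29.4%. No single order of the sets held across all classes and genotypes.

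**Figure D4:**
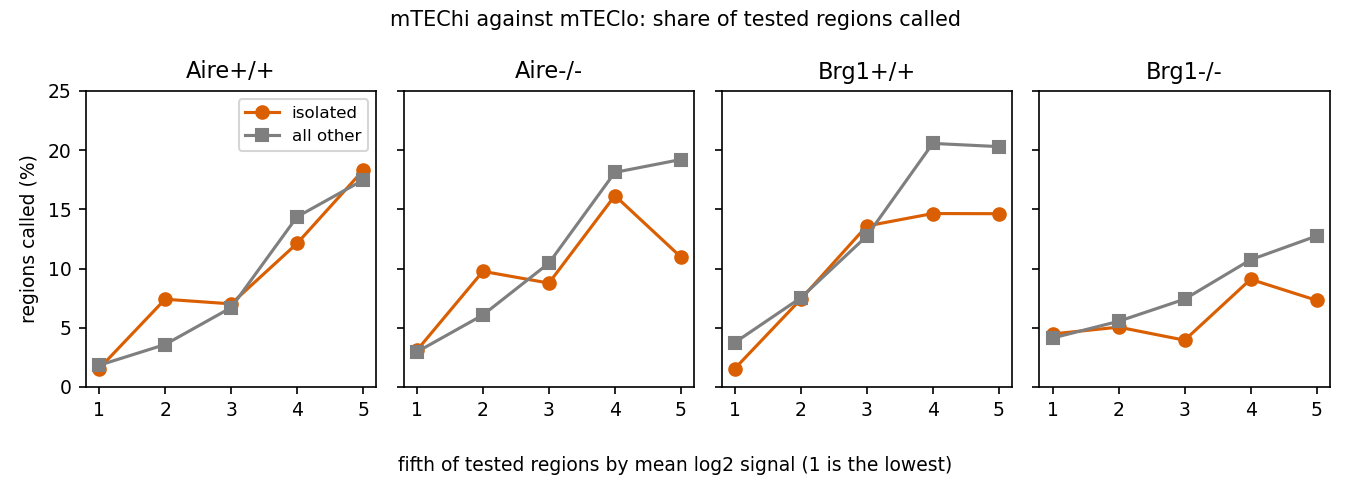
Share of tested regions (percent) called different between mTEChi and mTEClo in each genotype, for isolated (orange) and other (grey) regions, in 5 equal classes of mean log2 signal from lowest to highest. Both sets are higher in the fourth than in the lowest class in every genotype. The isolated regions fall again in the highest class in Aire-/- (16.2% to 10.98%) and Brg1-/- mice (9.09% to 7.32%), and neither set is above the other in all panels.

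Calls at isolated regions mostly set a clear signal in one sort against a value near the floor in the other. Of the 40 isolated regions higher in Aire+/+ mTEChi, the median signal was 36.3 in mTEChi and 5.02 in mTEClo, and at 28 (70.0%, against 37.7% of other regions called higher) the mTEClo mean was under the filter value of 7.48. For the 46 higher in mTEClo the medians were 6.11 in mTEChi and 44.9 in mTEClo, and 28 (60.9%, against 27.4%) had an mTEChi mean under that value. In Brg1-/- mice 58 of the 69 higher in mTEChi (84.1%, against 61.1%) were under it in mTEClo. Since such regions entered the tests through the sort in which they are high, these counts describe the calls and do not support a difference between the sets.

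Few sort calls recurred in all genotypes. In at least 1 genotype, 151 of the 1386 tested isolated regions were higher in mTEChi and 100 in mTEClo. Of the 223895 other tested regions, 37434 and 17209 were. None of the 251 isolated regions was called in opposite directions in different genotypes. Such opposite calls were also rare at other regions, at 40 of 54603, so this is not particular to isolated regions. All 4 genotypes called 7 higher in mTEChi (4.64% of the 151, against 8.08% at other regions) and 2 lower (2.00% of the 100, against 7.76%). These comparisons share no libraries but were fitted with 1 estimate of the spread. Across tested isolated regions, the sort difference in Aire+/+ mice correlated with that in Brg1+/+ mice at r = 0.499 (other regions 0.590), a description over regions.

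The clearest mTEChi region was chr5:63844779-63845278, 91754 bp from the nearest start. Its signal was 50.8 to 88.8 in the 8 mTEChi libraries (median 70.6) and 2.00 to 10.5 in the 8 mTEClo libraries (median 6.16), so the sorts were far apart. The log2 difference was 3.55, 3.58, 2.99 and 3.60 in Aire+/+, Aire-/-, Brg1+/+ and Brg1-/- mice (SE 0.61 each) and 3.43 over the mean (SE 0.31, adjusted p = 2.68e-10). It passed the test in every genotype under all 26 alternative settings and fits without a library.

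A pair of such regions lay on chromosome 4, under 1 Mb apart. At chr4:26368667-26369166 the signal was 32.0 to 64.2 in mTEChi and 1.21 to 9.47 in mTEClo, and the log2 difference was 4.47 in Aire+/+ mice (57.1 and 41.4 in mTEChi against 1.21 and 1.28 in mTEClo; adjusted p = 2.64e-05) and 3.33, 2.41 and 2.53 in Aire-/-, Brg1+/+ and Brg1-/- mice. At chr4:27273921-27274420, 173707 bp from the nearest start, it was 51.1 to 171.9 in mTEChi and 4.56 to 19.8 in mTEClo, and the log2 difference was between 2.38 and 3.75. The highest value there was in an Aire-/- mTEChi library, whose partner stood at 86.2. The sorts did not overlap at either region.

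At chr11:21726504-21727003 the signal was 48.5 to 122.2 in mTEChi and 1.65 to 14.6 in mTEClo, with log2 differences of 3.17, 3.75, 3.58 and 2.36 and of 3.21 over the mean (SE 0.29, adjusted p = 2.94e-10). The fifth region by the same rule, chr2:9003387-9003886, was less even: its signal was 15.6 to 89.8 in mTEChi and 0.528 to 18.4 in mTEClo, and the 2 Brg1-/- mTEChi libraries stood at 15.6 and 89.8. Across libraries the sorts overlapped at this region, although in each genotype both mTEChi libraries were above both mTEClo libraries.

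In the opposite direction, chr3:25256669-25257168 had a signal of 6.48 to 36.6 in mTEChi (median 13.1) and 62.7 to 123.6 in mTEClo (median 86.3). Its log2 difference was -3.19, -1.67, -2.84 and -2.87, smallest in Aire-/- mice, and -2.64 over the mean (SE 0.28, adjusted p = 5.37e-09). The other region lower in all 4 genotypes, chrX:43445343-43445842, had 2.12 to 18.8 in mTEChi (median 9.83) and 28.8 to 77.8 in mTEClo (median 51.2), with log2 differences between -2.85 and -2.46. Neither region's sorts overlapped.

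Over the mean of the 4 genotypes these 7 regions passed under all alternatives that could be run, while calls in single genotypes were less firm. Libraries were left out 1 at a time, so each number of libraries below counts separate fits that each lacked a single library. In Brg1-/- mice, chr4:26368667-26369166, chr4:27273921-27274420 and chr11:21726504-21727003 missed the threshold with either other scaling and without 2 or 3 of the Brg1-/- libraries (highest adjusted p 0.0912, 0.144 and 0.0990). In Brg1+/+ mice, chr4:26368667-26369166 missed it with quantile-normalized values and without mTEChi replicate 1 or mTEClo replicate 1 (highest adjusted p 0.135). The call of chr3:25256669-25257168 in Aire-/- mice was lost without any of 9 libraries (highest adjusted p 0.388) and with a pseudocount of 0.5, and those of chrX:43445343-43445842 without 2 to 4 libraries of the genotype compared (0.175 to 0.260). The calls of chr2:9003387-9003886 were lost without 9 libraries in Aire+/+, 4 in Aire-/- and 2 each in Brg1+/+ and Brg1-/- mice (highest adjusted p 0.349). They were also lost with re-centring in Aire+/+, Aire-/- and Brg1+/+ mice, with a pseudocount of 0.5 in both Aire genotypes and with quantile-normalized values in Brg1+/+ mice.

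**Figure D5:**
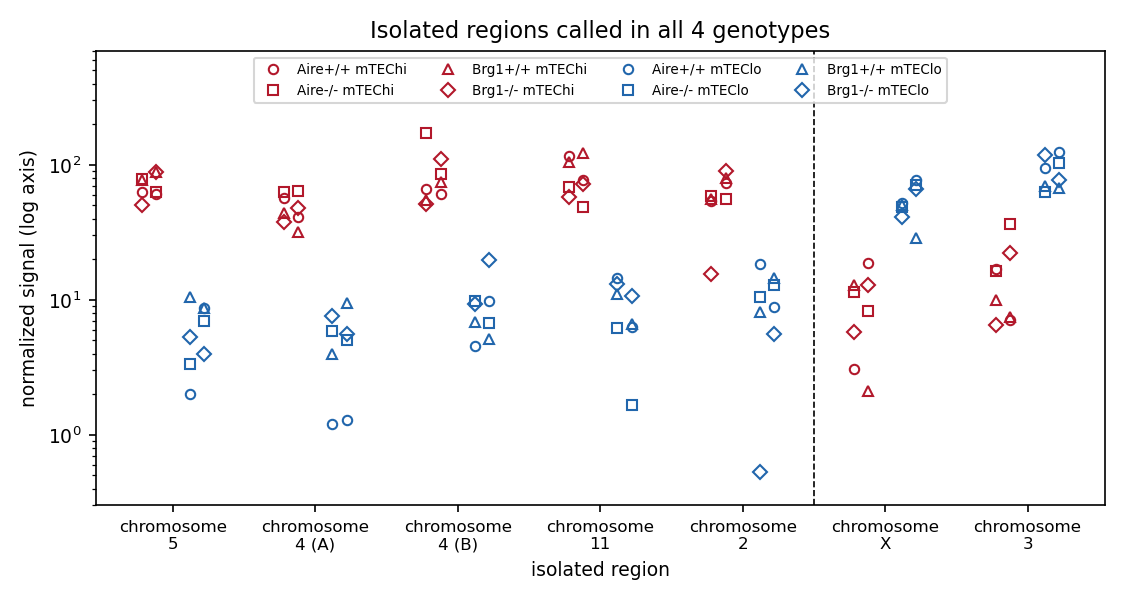
Normalized signal (log axis) in each of 16 libraries at 7 isolated regions called in all 4 genotypes, 5 higher in mTEChi (left of the dashed line) and 2 higher in mTEClo; colour marks the sort and symbol the genotype, and A and B are the chromosome 4 regions in order of position. The mTEChi and mTEClo libraries separate at each region except that on chromosome 2, where a Brg1-/- mTEChi library at 15.6 falls among the mTEClo values.

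Other isolated regions had large sort differences in 1 or a few genotypes. At chr12:97436117-97436616 the 2 Aire-/- mTEChi libraries stood at 96.7 and 75.8 and the mTEClo libraries at 1.80 and 5.92 (log2 difference 4.30, SE 0.71, adjusted p = 0.000153). In Aire+/+ mice the values there were 23.9 and 42.2 against 8.62 and 8.33, a log2 difference of 1.79 that did not pass (adjusted p = 0.117). At chr6:107187621-107188120 the log2 difference was 4.20 in Aire-/-, 3.62 in Brg1-/- and 2.21 in Brg1+/+ mice, and 1.62 in Aire+/+ mice, where it did not pass. The Brg1-/- call there was lost without mTEClo replicate 2 (2.90, adjusted p = 0.0501). Neither region was among the calls of the interaction, which tests whether the sort difference changes with genotype.

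Some regions lower in mTEChi also passed in some genotypes and not in others; whether the sort difference itself differs between the Aire and Brg1 mice was not tested. At chr14:107739440-107739939 the Aire+/+ libraries stood at 10.2 and 2.00 in mTEChi and at 71.2 and 98.1 in mTEClo (log2 difference -3.86, SE 0.68, adjusted p = 0.000374), and in Brg1-/- mice at 9.73 and 18.3 against 16.5 and 25.4 (-0.58, adjusted p = 0.631). At chr12:14976789-14977288 the Brg1+/+ libraries stood at 1.53 and 2.84 in mTEChi and at 50.7 and 41.4 in mTEClo (-3.91, adjusted p = 0.000127). In Aire+/+ mice the same region stood at 25.4 and 32.0 against 46.3 and 57.0 (-0.83, adjusted p = 0.473). At chr3:42556893-42557392, the brightest of those named for a sort difference (mean signal 78.8), the signal was 1.99 to 37.6 in mTEChi and 83.7 to 215.4 in mTEClo. The sorts did not overlap there, and the log2 difference over the mean was -2.69 (SE 0.32, adjusted p = 6.16e-08).

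The nearest listed region shared a call higher in mTEChi less often for isolated than for other regions. The nearest region was tested for 53 isolated regions higher in Brg1+/+ mTEChi, and at 2 of them (3.77%) it was also called higher, against 18.0% for other regions called higher. In Aire+/+ mice it was 0 of 30 (12.6% for others) and over the mean of 4 genotypes 41 of 181 (22.7%, against 41.7%). Of all tested regions, 9.21% in Brg1+/+ and 5.14% in Aire+/+ mice and 27.1% over the mean were called higher. Among calls higher in mTEClo, the nearest region shared the call at 4 of 37 in Aire+/+ mice (10.8%, against 7.99%; 3.65% of all tested). Over the mean it did at 21 of 117 (17.9%, against 21.6%; 10.6% of all tested). Opposite calls over the mean were found at 22 of 181 for mTEChi (12.2%, against 5.53%). For mTEClo they were found at 19 of 117 (16.2%, against 12.5%). The neighbour of an isolated region is at least 50 kb away by the rule, and the median distance for other regions was 1505 bp.

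Over the mean, though not in the calls of every genotype, isolated regions on X leaned more to mTEClo than those on the autosomes. Over the mean of the 4 genotypes, 52 of 171 tested isolated regions on X passed (30.4%), 24 higher in mTEChi and 28 in mTEClo, and 344 of 1215 on the autosomes (28.3%), 214 and 130. The median log2 difference was 0.0042 on X and 0.25 on the autosomes, and at other regions it was 0.11 on X and 0.33 on the autosomes. The lower median on X was thus seen in both sets. By genotype, 2 isolated regions on X were called higher and 9 lower in Aire+/+, 4 and 10 in Aire-/-, 7 and 3 in Brg1+/+, and 4 and 1 in Brg1-/- mice. On the autosomes the isolated calls were 38 and 37, 49 and 45, 60 and 33, and 65 and 4. Isolated calls in Brg1+/+ mice thus showed no lean of X to mTEClo. In the same order, other regions on X had 75 higher and 89 lower, 113 and 127, 163 and 90, and 103 and 30. The direction by genotype on X was therefore not particular to isolated regions. The share called on X was 6.43%, 8.19%, 5.85% and 2.92% of tested isolated regions. For other tested regions on X it was 4.92%, 7.20%, 7.59% and 3.99%. Sort calls over the mean did not change at the edge of the rule, with 32.1% of 716 tested regions at 40 to 50 kb and 32.99% of 388 at 50 to 60 kb, and the share was 25.8% of 357 beyond 100 kb.

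Loss of Aire or Brg1 gave no call at an isolated region. For Aire-/- against Aire+/+ mice 0 of 1386 passed in mTEChi (smallest adjusted p = 0.0740) and 0 in mTEClo, where 0.0209% and 0.0% of all tested regions did. For Brg1-/- against Brg1+/+ mice 0 passed in mTEChi (smallest adjusted p = 0.107) and 0 in mTEClo (0.400), where 0.0257% and 0.000444% did. The interactions of sort with genotype gave 0 for Aire and 0 for Brg1, where 0.000444% and 0.0% of all regions passed. At such background rates fewer than 1 call would fall among 1386 regions, so these counts say little of isolated regions in particular.

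At an unadjusted p under 0.05 in limma, 173 isolated regions (12.5%) differed between Aire-/- and Aire+/+ mTEChi, where 10.2% of all tested regions did. The count was 50 (3.61%, where 2.5% of all did) in mTEClo. Between Brg1-/- and Brg1+/+ mice it was 170 (12.3%, where 10.7% of all did) in mTEChi and 84 (6.06%, where 6.15% did) in mTEClo. For the interactions it was 64 (4.62%, where 5.15% did) for Aire and 97 (6.999%, where 7.09% did) for Brg1. These shares were close to the background, and no single region among them can be named as changed.

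Of the 4 genotype comparisons, that in Brg1 mTEChi had the largest median shift at isolated regions. The median log2 difference from Brg1+/+ was 0.41 over tested isolated and 0.22 over other regions, and at an unadjusted p under 0.05 146 isolated regions were higher and 24 lower, where 7.8% and 2.9% of all tested regions were (85.9% of the isolated higher, against 72.8% at the others). The scaling bears on the direction: quantile normalization gave 67 higher and 50 lower (57.3%, against 46.1%) and re-centring 67 and 56 (54.5%, against 28.6%). The larger share than at other regions was kept under both. In Brg1-/- mTEClo the medians were 0.12 and 0.048, and for Aire-/- against Aire+/+ mTEChi 0.064 and -0.0018, with 0.079 and 0.000074 in mTEClo. The shift in Brg1 mTEChi was not confined to isolated regions. Tested regions 40000 to 50000 bp from the nearest start, just outside the rule, had a median of 0.38. From lowest to highest of the 5 classes of mean log2 signal, the median was 0.61, 0.34, 0.30, 0.40 and 0.19 for isolated regions. For other regions it was 0.49, 0.36, 0.27, 0.17 and 0.044. How far distance or signal accounts for the gap between the sets was not tested.

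The genotype counts depended on single libraries. Without Aire+/+ mTEChi replicate 1, 15 isolated regions passed for Aire in mTEChi (14 higher and 1 lower) and 2 for the Aire interaction; without any other library none did in either. This group had the lowest correlation between its libraries, 0.237, and its part in these calls was not tested. The share of all tested regions that passed in that fit is not given here. The counts are therefore no result on isolated regions in particular. For Brg1 in mTEChi, leaving out 1 of its 4 libraries at a time gave 1 or 2 calls, and re-centring gave 1, at chr13:111922164-111922663 (log2 difference -2.55, adjusted p = 0.0478).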

How the data were processed

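ATAC-seq libraries of sorted mTECs were deposited as 1 table of normalized signal for 250313 regions in 16 libraries. Per the submitters' processing notes, the authors used Bowtie2, MACS2 and the mm9 build; versions, the definition of regions, read shifting and filtering, and the scaling behind this deposited signal are not given in the sources used here. Read counts were not used here and whole reads could not be recovered, so depth is unknown.

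Region starts were taken as counted from 0 and are printed counted from 1. limma 3.58.1 in R 4.3.3 fitted log2(signal + 1) with 1 mean for each of 8 groups (8 residual degrees of freedom, trend and robust settings), over 225281 regions with a mean signal at or above the 10th percentile (7.48). Calls used a two-sided Benjamini-Hochberg adjusted p under 0.05 within each of 11 contrasts. Fold changes on this scale understate changes of low regions. The code was tested on simulated data. Alternatives were another pseudocount, filter, scaling, distance or sample set, a replicate block and each library left out.

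Members, named regions and tests were chosen with earlier results of these data known. Named were the 5 brightest, 3 steadiest and 3 most distant isolated regions, for each genotype's sort contrast and direction the 3 largest called differences at or above median signal with separated libraries, and up to 5 called in all 4 genotypes with the largest smallest difference; the text gives a subset. The region on chromosome 13 was named after its value was seen.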

Additional observations from a re-analysis of the deposited data

How the results depend on the processing

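The number of isolated regions was 6545 with a distance of 25000 bp and 647 with 100000 bp, and sort calls moved with it: 283 and 12 in Aire+/+, 427 and 25 in Aire-/-, 405 and 16 in Brg1+/+, 256 and 18 in Brg1-/- mice, and 1443 and 92 over the mean of 4 genotypes. Changing the distance changed the set and not the fit, so the shares of all tested regions that passed were those given above. At 25000 bp 1 region passed for Aire-/- and 1 for Brg1-/- in mTEChi, and re-centring gave 1 for Brg1-/- in mTEChi. Quantile normalization left 64 sort calls in Brg1+/+ and 32 in Brg1-/- mice, and a filter at the 50th percentile left 43 in Brg1-/- mice and 212 over the mean, with fewer regions tested.

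The difference in log2 signal between isolated and other regions was -0.62 in mTEChi and -0.40 in mTEClo with a pseudocount of 5, -0.65 and -0.30 with a filter at the 10th percentile, -0.47 and -0.22 at the 50th percentile, and -0.65 in mTEChi at 25000 bp. The median log2 difference of isolated minus that of other regions moved to -0.26 for the sorts in Brg1+/+ mice and to 0.24 for Aire-/- in mTEChi with a filter at the 50th percentile. It reversed to -0.079 for Aire-/- in mTEChi without a filter, and at 100000 bp to -0.14 for the Aire and -0.020 for the Brg1 interaction; the cause was not tested.

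With each library left out in turn, sort calls ranged from 23 to 100 in Aire+/+, 24 to 131 in Aire-/-, 34 to 128 in Brg1+/+ and 16 to 93 in Brg1-/- mice. Genotype calls in mTEChi ranged from 0 to 15 for Aire and from 0 to 2 for Brg1, and those of the Aire interaction from 0 to 2. Shares of all tested regions that passed in these fits are not given here. The median differences ranged from -0.048 to 0.21 for Aire and 0.089 to 0.34 for Brg1 in mTEChi, and from -0.12 to 0.13 for the Aire and 0.054 to 0.26 for the Brg1 interaction.

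The isolated share of sort calls stayed below that of other regions in 143 of 144 combinations of setting and comparison. A replicate block gave 85, 113, 106 and 74 sort calls in the 4 genotypes and 399 over the mean, and 0 genotype calls. Same-numbered libraries did not deviate together (correlations -0.018 to 0.034 over 28 pairs). Whether they share a mouse or preparation is not given, and these correlations over noisy values cannot exclude it. Leaving out regions with a listed 0 was chosen after seeing the data. Unknown depth limits what low values can show.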
